A study of Mus musculus with 2 samples.

Results

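The genes described here are 10 of the 32285 genes measured: Vegfa, Adm, Egln1, Egln3, Bnip3, Pdk1, Ddit4, Ndrg1, Ankrd37 and P4ha2. They were taken by symbol as genes that cells switch on when oxygen is low. Their RNA was read from the 3' end in single cells of E10.5 mouse hearts, and each of 2 genotypes gave 1 library from 4 pooled hearts. The library labelled wildtype is BubR1+/+ ; Nkx2.5-cre (het), and the library labelled knockout is BubR1fl/fl ; Nkx2.5-cre (het). Both groups carry 1 copy of the Cre, which Nkx2.5 drives in early heart cells, and BubR1 is the spindle checkpoint kinase encoded by Bub1b. While genotypes were read, embryos of both groups waited 3 hours on ice. Neither genotype had a replicate library, so no test was run, and all intervals are 95% exact intervals of counting error only. A difference is therefore one between 2 libraries, and genotype, litter, stage and handling cannot be told apart.

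In normal oxygen the prolyl hydroxylases, among them the products of Egln1 and Egln3, mark the alpha subunits of the hypoxia-inducible factors (HIF) for destruction through the protein of Vhl. When oxygen falls, the alpha subunits, such as that of Hif1a, accumulate, pair with the protein of Arnt and bind a short DNA motif with the core ACGTG near their target genes. The embryonic heart forms before its own coronary circulation, and Vegfa from heart muscle is known to act on the neighbouring endothelium. HIF is controlled mainly through protein stability, so the mRNA of Hif1a need not follow its activity.

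A barcode was taken as a cell with at least 3000 unique molecules (UMIs), 500 genes and at most 20% mitochondrial UMIs. This left 7440 cells labelled wildtype, at a median depth of 9504.5 UMIs, and 5966 labelled knockout, at 17042.5. The 10 genes had 17096 and 27303 UMIs in these cells, and 8 barcodes occurred in both libraries. Cells were sorted into classes by marker genes, and 6 classes had at least 50 cells in both libraries. The median cardiomyocyte held 392 and 374 UMIs of cardiomyocyte markers per 10000, and the median cell of the other 5 classes at most 14.6. The libraries stood apart in their blood: hemoglobin made up 24.6% of the UMIs of wildtype cells and 10.9% of knockout cells, and among beta-like globin UMIs of erythroid cells 21.4% (95% interval 21.36 to 21.43) and 4.35% (4.33 to 4.36) came from the adult genes Hbb-bs and Hbb-bt. Embryonic globins are known to precede the adult ones, and whether the hearts differed in stage was not tested. Bub1b was at 59.1 CPM (UMIs per 1000000 UMIs of the class, 54.4 to 64.1) in wildtype and 30.05 (26.9 to 33.5) in knockout cardiomyocytes, while over all cells it was at 32.4 and 40.8. The floxed exons were not named in the sources used here, so 3' UMIs may lie outside the deleted part.

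A stretch with the core motif ACGTG, on either strand, was looked for in the 250 bases before each annotated start, because the 10 genes are described here as targets of 1 factor. RefSeq promoter windows (build GRCm38.p6, the same assembly as mm10) were found for 9 of the 10 genes and not for Ndrg1. These 9 genes have 11 windows, of which 7, from 7 genes, hold the motif, against 16.6% of all 32851 windows. One stretch is shown for each, read 5' to 3' along the gene's strand, with the motif in capitals.
Bnip3: cacgcgccgcACGTGccacacgctc
Egln1: gccgtggtgtACGTGcagcgcgcgc
Egln3: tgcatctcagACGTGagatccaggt
Ddit4: aacgttgcgaACGTGcgcccggtgc
P4ha2: tgcatcgcatACGTGcagcgcgtgg
Ankrd37: cccagcagtACGTGcctagctcgg
Vegfa: agtgcgtgccCACGTcagagagcaa
The Bnip3 stretch lies on the minus strand at chr7:138909599-138909623, outside any annotated gene, and its motif starts 107 bases before the start site. Likewise outside genes are those of Egln3 (minus strand, chr12:54204089-54204113) and Ddit4 (minus strand, chr10:59951943-59951967). The Egln1 stretch (minus strand, chr8:124949308-124949332) overlaps an Egln1 exon, and that of P4ha2 (plus strand, chr11:54100836-54100860) lies in a P4ha2 intron of another transcript. The Ankrd37 stretch (minus strand, chr8:46000077-46000100) lies in introns of Ankrd37 and of Lrp2bp on the opposite strand, and Ankrd37 has a second motif 6 bases before its start. The Vegfa stretch (minus strand, chr17:46025360-46025384) belongs to the second of its 2 windows, which begins inside the gene, and carries the motif on the other strand. The windows of Adm and Pdk1 and the first window of Vegfa hold no such letters, which says nothing about sites elsewhere.

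Summed over the 10 genes, cardiomyocytes had the highest level of the 6 classes in both libraries, 609 CPM (594 to 625) in the 628 wildtype cells and 463 (451 to 476) in the 569 knockout cells. The sum in the other classes was 181 and 185 in endothelial and endocardial cells, 207 and 268 in epicardial cells, and 208 and 261 in mesenchyme of the cushions and outflow tract. Macrophages were at 183 and 370. Erythroid cells had the lowest sum, 63.3 and 50.5, with hemoglobin taking 81.3% and 46.1% of their UMIs. After hemoglobin was left out of the total, erythroid cells stood at 339 and 93.6 CPM. In the knockout library 57 hepatic cells were at 439 CPM (406 to 473) and 100 megakaryocytes at 383 (351 to 416), while the wildtype library had 0 hepatic cells and 25 megakaryocytes. Most hepatic UMIs came from Bnip3 (138 CPM), Egln1 (87.3), Pdk1 (83.5) and Ndrg1 (62.9), and Adm had 0 UMIs there. Cells that passed no gate were at 124 and 603 CPM (577 to 629), with hemoglobin kept in the total, where it took 46.3% and 0.842% of their UMIs. Megakaryocytes had the highest Egln3 level of the classes shown, 70.5 CPM (57.3 to 85.9).

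**Figure D1:**
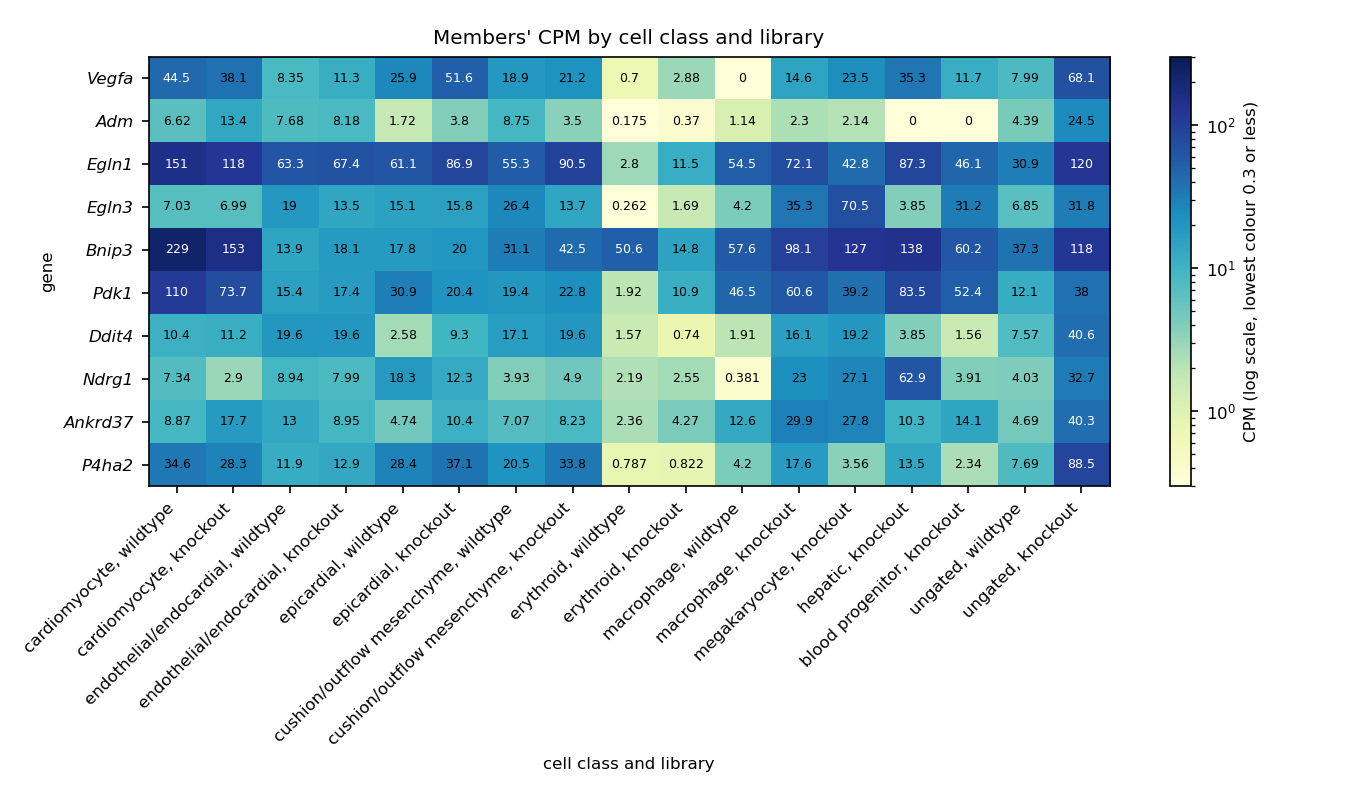
Level of each of the 10 genes in CPM (colour, log scale, with the value printed in each cell) for the classes with at least 50 cells in a library and the cells that passed no gate. In the wildtype library Bnip3, Egln1 and Pdk1 are darkest in cardiomyocytes, and in erythroid cells Vegfa, Adm, Egln3, Ddit4, Ndrg1, Ankrd37 and P4ha2 are under 5 CPM in both libraries.

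In cardiomyocytes the 10 genes did not move together. Past a 1.5-fold difference between libraries, 2 of the 10 were higher in the knockout library, Adm and Ankrd37, and 1 was lower, Ndrg1. Over the 13495 genes with at least 20 UMIs, 10.0% were at least 1.5-fold higher and 10.2% lower. The median log2 ratio of the 10 genes, knockout over wildtype, was -0.26 (median bounds -0.48 to -0.05), against 0.03 for all genes. It was -0.05 with each cell thinned to 3000 UMIs and -0.09 as the mean over cells. Intervals lay below 0 for 6 genes and above 0 for 2. The share of all genes with an interval off 0 was not computed, so these counts are not read as particular to the 10 genes.

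Of the secreted signals, Vegfa, the main growth factor of vessels, was at 44.5 CPM (40.5 to 48.9) in wildtype and 38.1 (34.6 to 41.96) in knockout cardiomyocytes, a log2 ratio of -0.22 (-0.42 to -0.03). UMIs of Vegfa were found in 43.0% and 43.8% of these cells, against 0.760% and 4.67% of erythroid cells, whose median depths were 11993 and 20586 UMIs and which stand here for free RNA. Adm, which encodes the vascular peptide adrenomedullin, was at 6.62 CPM (65 UMIs) and 13.4 (148 UMIs), a log2 ratio of 1.02 (0.59 to 1.46). Vegfa thus differed little between the libraries and Adm was 2.03-fold higher in the knockout library, with intervals that do not overlap.

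Of the oxygen sensors, Egln1, the main HIF prolyl hydroxylase, was at 151 CPM (143 to 159) and 118 (111 to 124), a log2 ratio of -0.36 (-0.47 to -0.25). Egln3, its inducible relative, was at 7.03 and 6.99 CPM, with 1 knockout cell holding 13.0% of the 77 UMIs. Its interval, -0.50 to 0.48, allows a difference of either sign, and as a mean over cells its ratio was 0.62.

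Of the genes acting on mitochondria and metabolism, Bnip3, a receptor for the removal of mitochondria, was at 229 CPM (220 to 239) and 153 (146 to 161). Its log2 ratio was -0.58 (-0.67 to -0.49), a difference of 1.495-fold that stops just short of the threshold. Pdk1, the kinase that holds pyruvate back from the mitochondria, was likewise just short at 1.491-fold, with 110 and 73.7 CPM and a ratio of -0.58 (-0.71 to -0.44). Ddit4, an inhibitor of mTORC1, was at 10.4 and 11.2 CPM, and its interval of -0.29 to 0.50 spans 0. With cells thinned to 3000 UMIs the ratio of Ddit4 was 0.98, past the threshold, while those of Bnip3, Pdk1 and Egln1 were -0.30, -0.36 and -0.11. None of these last 3 genes passed the threshold in either form. Bnip3 and Pdk1 did pass it under some other settings, at -0.603 and -0.597 with a minimum of 6000 UMIs per cell. With doubled marker minimums they were at -0.625 and -0.596.

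Ndrg1, known as a stress-responsive gene of differentiation, was at 7.34 CPM (72 UMIs) and 2.90 (32 UMIs), a log2 ratio of -1.34 (-1.98 to -0.72). One knockout cell held 21.9% of those 32 UMIs. Ankrd37, which encodes an ankyrin repeat protein, was at 8.87 CPM (87 UMIs) and 17.7 (195 UMIs), a ratio of 1.00 (0.63 to 1.38). P4ha2, a subunit of collagen prolyl hydroxylase, was at 34.6 and 28.3 CPM, a ratio of -0.29 (-0.52 to -0.06). Of these 3 genes Ndrg1 was lower, Ankrd37 higher and P4ha2 within the threshold.

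Splitting cardiomyocytes by Myl2, the ventricular myosin light chain, at 10 UMIs per 10000 separated the directions. The Myl2-rich cells were 74.4% of wildtype (70.8 to 77.7) and 76.1% of knockout cardiomyocytes (72.4 to 79.6), and the median ratio of the 10 genes in them was -0.44, against 0.05 for all genes. In the Myl2-poor cells, 161 and 136, it was 0.79, or 0.69 over the 9 genes with at least 20 UMIs there, against 0.02 for all genes. Bnip3 was at 275 and 163 CPM in Myl2-rich cells, a ratio of -0.75 (-0.85 to -0.65), and at 66.8 and 107 CPM in Myl2-poor cells, a ratio of 0.69 (0.38 to 1.00). For Ddit4 the ratio was -0.45 (-0.90 to -0.01) in the first and 2.496 (1.39 to 3.80) in the second, where 8 and 42 UMIs were counted.

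Vegfa also took opposite signs in these subsets, -0.42 (-0.63 to -0.21) and 0.90 (0.33 to 1.49), and Egln1 did so at -0.50 (-0.61 to -0.38) and 0.38 (0.07 to 0.69). Adm and Ankrd37 were higher in the knockout library in both subsets, and Pdk1 was lower in both. In Myl2-poor cells Nppa, an atrial and trabecular gene, was at 7647 CPM in the wildtype and 1562 in the knockout library. Over all cardiomyocytes Rspo3 was at 31.5 and 196.5 CPM, and Isl1, a gene of cardiac progenitors, at 2.65 and 11.98. Clusters built from all cells also divided the gated cardiomyocytes largely by library. Cluster 9 held 384 of the wildtype and 20 of the knockout cells, cluster 11 held 3 and 404, and cluster 16 held 137 and 112. Cluster 19, which its markers name erythroid, held 63 and 2. With cells over 5% hemoglobin left out, the median ratio of the 10 genes in cardiomyocytes was -0.33. Whether the kinds of cells or the level per cell differed was not tested.

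**Figure D2:**
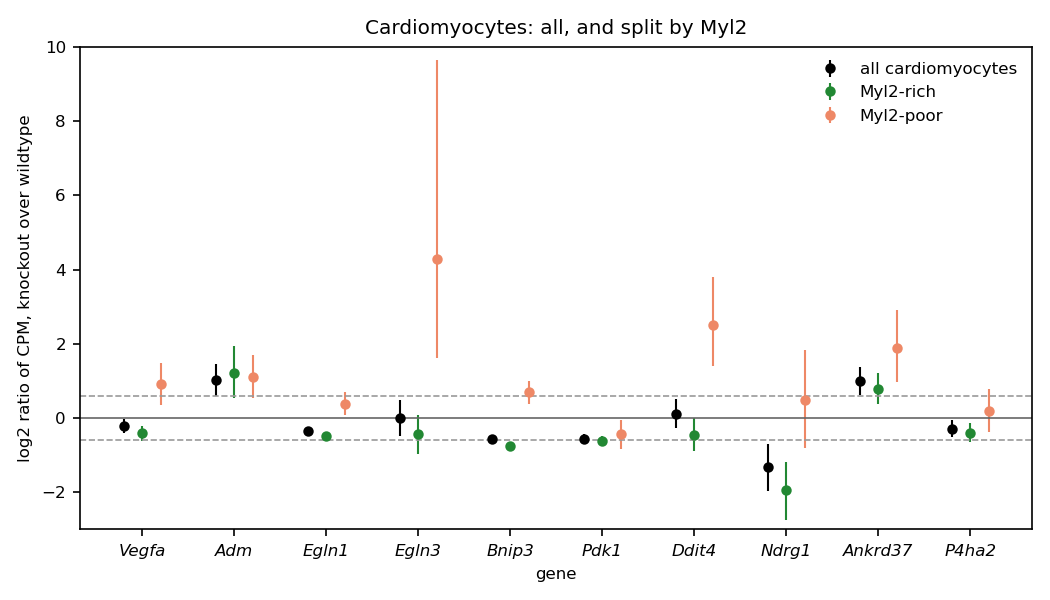
Log2 ratio of CPM, knockout over wildtype, for each gene in all cardiomyocytes (black), Myl2-rich cells (green) and Myl2-poor cells (orange), with 95% counting intervals and dashed lines at 1.5-fold. Vegfa, Egln1, Bnip3 and Ddit4 lie below 0 in Myl2-rich and above 0 in Myl2-poor cells, while Adm and Ankrd37 lie above 0 in all 3 groups.

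Other genes of the pathway in cardiomyocytes were read from lists. Of 47 measured other HIF-induced genes, 3 were past 1.5-fold higher, 7 lower and 37 neither, with a median ratio of -0.08. The glucose transporter Slc2a1 was at 168 and 458 CPM (ratio 1.45, 1.37 to 1.53) and Slc2a3 at 17.2 and 42.2 (1.29, 1.04 to 1.56). The lipoprotein receptor Vldlr was at 75.5 and 27.0 CPM (-1.49, -1.69 to -1.29), and the glycolytic enzyme Aldoc at 15.7 and 7.17 (-1.13, -1.54 to -0.73). Genes of this list thus differed in both directions, as did the 10 genes. So did all genes, of which 10.0% were past 1.5-fold higher and 10.2% lower.

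Of the 15 genes of the HIF machinery, 1 was past the threshold in cardiomyocytes, Cited2, a competitor of HIF for its coactivators, at 41.4 and 82.3 CPM (0.99, 0.82 to 1.17). Hif1a was at 263 and 271 CPM (0.05, -0.03 to 0.12), Arnt at 35.5 and 29.1 (-0.28, -0.51 to -0.06), Vhl at 11.3 and 10.4, and Epas1 at 1.83 and 1.91. Of 8 measured receptor genes of Vegfa and Adm 1 was higher and 2 lower: Kdr was at 2.65 and 12.7 CPM (2.26, 1.65 to 2.93), Ramp2 at 11.5 and 5.45, and Calcrl at 6.11 and 3.54, all in 140 UMIs or fewer. Of 9 genes of pyruvate dehydrogenase control 3 were lower in the knockout library, among them the Pdk1 relatives Pdk2, at 15.3 and 6.99 CPM, and Pdk4, at 12.5 and 5.54. Of 13 partners in mitophagy and mTORC1 control 1 was higher and 2 lower. The mitophagy kinase Pink1 was at 25.8 and 11.3 CPM (-1.20, -1.52 to -0.88). Of 10 genes of energy supply in working muscle 5 were lower and 0 higher, with Ckm at 198 and 3.54 CPM and Mb at 575 and 34.7. Of 15 core p53 targets, 4 were higher and 1 lower, Cdkn1a among the former at 17.5 and 48.8 CPM. Of 10 collagen hydroxylase genes, partners of P4ha2, 0 were higher and 1 was lower.

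In the epicardium, the outer cell layer of the heart, 929 wildtype and 2130 knockout cells were compared. Here 4 of the 10 genes were past 1.5-fold higher in the knockout library and 1 lower (13.8% and 21.0% of 15799 genes). The median ratio was 0.45 (median bounds 0.29 to 0.61), against -0.03 for all genes. Vegfa was at 25.9 CPM (22.8 to 29.4) and 51.6 (49.4 to 53.9), a ratio of 0.99 (0.80 to 1.19). Ddit4 was at 2.58 CPM (24 UMIs) and 9.30 (375 UMIs), a ratio of 1.85 (1.25 to 2.51). Ankrd37 was at 4.74 and 10.4 CPM, and Adm at 1.72 (16 UMIs, of which 1 cell held 31.2%) and 3.80. Pdk1 was the gene past the threshold in the other direction, at 30.9 and 20.4 CPM (-0.60, -0.79 to -0.40), and Ndrg1 stopped short at 18.3 and 12.3.

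Knockout epicardial cells also passed the mesenchyme gate more often, 584 against 103 cells, counted before cells passing a further gate were left out. Those that were kept were counted as epicardial by rule. With doubled marker minimums the epicardial median was 0.26, and with clusters in place of the gate it was 0.16, each below the median bounds given above. The libraries filled different clusters, with 833 wildtype and 2 knockout cells in cluster 4, 2 and 1300 in cluster 1 and 2 and 762 in cluster 7. The part of the gate's make-up was not tested. Pgk1, a glycolytic enzyme of the HIF-induced list, was at 152 and 382 CPM and Hk2, the first enzyme of glycolysis, at 17.4 and 58.4, while Lox, a collagen cross-linking enzyme, was at 64.6 and 6.53. Of 48 measured genes of that list 10 were higher and 7 lower, with a median of -0.09.

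Endothelial and endocardial cells, 1354 and 765, also lay in different clusters, with 829 and 3 in cluster 6 and 253 and 682 in cluster 3. Here none of the 10 genes was past 1.5-fold in either direction (0 of 10 each way, against 6.95% of 13910 genes higher and 16.5% lower). The nearest were Ankrd37 at 13.0 and 8.95 CPM (-0.54, -0.93 to -0.16), Egln3 at 19.0 and 13.5 (-0.49, -0.81 to -0.18) and Vegfa at 8.35 and 11.3 (0.43, 0.03 to 0.83). Kdr and Flt1, the receptors of Vegfa, were at 245 and 221 CPM and at 496 and 386 in these cells. Calcrl and Ramp2, which together form a receptor of Adm, were at 449 and 418 and at 1053 and 864. Of 9 receptor genes 3 were past 1.5-fold lower in the knockout library, Ackr3 at 208 and 118 CPM, Nrp2 at 66.7 and 23.2 and Ramp3 at 11.03 and 2.31. Epas1, the HIF alpha subunit typical of endothelium, was at 76.6 and 47.7 CPM (-0.68, -0.84 to -0.52).

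In cushion and outflow mesenchyme, 1187 and 408 cells, 2 genes were past 1.5-fold higher and 2 lower (8.76% and 21.8% of 14164 genes). Egln1 was at 55.3 CPM (51.3 to 59.6) and 90.5 (82.9 to 98.6), a ratio of 0.71, and P4ha2 at 20.5 and 33.8, a ratio of 0.72 (0.45 to 1.00). Adm was at 8.75 CPM (109 UMIs) and 3.50 (20 UMIs), a ratio of -1.32 (-2.09 to -0.62), opposite in sign to cardiomyocytes and epicardium. Egln3 was at 26.4 and 13.7 CPM (-0.95, -1.33 to -0.59). The median ratio was 0.22 (median bounds -0.15 to 0.61), and with clusters in place of the gate it was -0.29. Those 4 genes therefore split evenly by direction. Wildtype mesenchyme lay mainly in clusters 5, 8 and 10 (440, 239 and 412 cells, against 1, 0 and 0), and knockout mesenchyme in cluster 12 (313, against 3). Col1a1, a collagen gene of the gate, was at 1220 and 200.2 CPM, and the epicardial marker Tcf21 at 174 and 81.6. The part of these cells in the ratios was not tested.

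**Figure D3:**
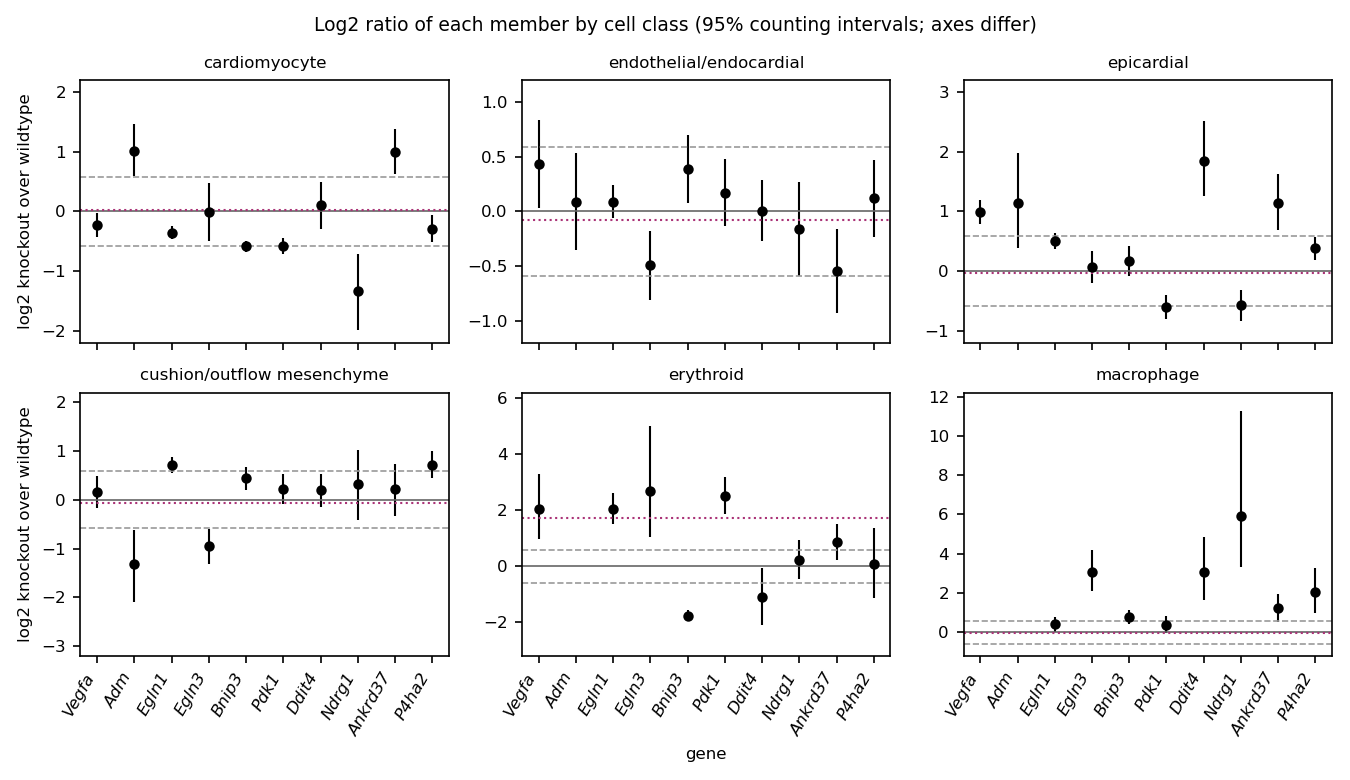
Log2 ratio, knockout over wildtype, of each gene in 6 cell classes with 95% counting intervals, for genes with at least 20 UMIs; dashed lines mark 1.5-fold and the dotted line the median of all genes, and the vertical axes differ. Adm lies above 0 in cardiomyocytes and epicardial cells and below 0 in mesenchyme, and in erythroid cells the median gene itself lies at 1.73.

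Erythroid cells, 921 and 1135, differed as a whole, and 741 and 2 of them lay in cluster 0 but 4 and 1086 in cluster 2. Beside the hemoglobin shares given above, all genes had a median ratio of 1.73, with 76.4% of 11633 genes past 1.5-fold higher and 8.18% lower. Of the 9 hypoxia genes that passed, 5 were higher and 2 lower. Bnip3 was the exception by size, at 50.6 CPM (46.5 to 54.9) and 14.8 (13.3 to 16.4), a ratio of -1.78 (-1.97 to -1.58). With hemoglobin left out of the total it was at 270 (249 to 293) and 27.3 (24.6 to 30.3). Bnip3 thus made up most of the members' UMIs in wildtype erythroid cells, 578 of 724, and a smaller part in the knockout ones, 359 of 1229. Without hemoglobin and mitochondrial UMIs in the total, the median of the genes changed sign from 0.86 to -0.68, so no direction is read from it. Hmox1, which degrades heme, was at 44.8 and 1.15 CPM.

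Macrophages, 264 and 56 cells, had 6 of 8 genes past 1.5-fold higher and 0 lower (17.6% and 20.9% of 10213 genes). Their median ratio was 1.66 (median bounds 0.76 to 2.61). A single knockout cell held 20.7% of all the members' UMIs in this class, including 76.7% of the 30 Ndrg1 UMIs, 78.3% of the 23 of P4ha2 and 68.4% of the 19 of Vegfa. The wildtype macrophages had 0 Vegfa UMIs in 264 cells, against 19 in 56 knockout cells. Less concentrated were Egln3, at 4.20 CPM (11 UMIs) and 35.3 (46 UMIs, in 18 cells), and Bnip3, at 57.6 and 98.1 CPM (0.77, 0.42 to 1.12). With the highest doublet scores removed the median was 0.73. Both the macrophage and the blood progenitor gate were passed by 57 wildtype and 43 knockout cells, counted before cells passing a further gate were left out.

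Whether the genes were found together in single cells was examined after each cell was thinned to 3000 UMIs, so that total UMIs per cell were equal. Hemoglobin is part of that total, and its share was 46.3% in ungated wildtype and 0.842% in ungated knockout cells. Cells with UMIs of 5 or more of the 10 genes numbered 14 of 7440 in the wildtype library, 0.188% (0.103 to 0.316), and 80 of 5966 in the knockout library, 1.34% (1.06 to 1.67). Over 10 thinnings the numbers were 8 to 14 and 74 to 95. With hemoglobin removed before thinning, which left out 1640 wildtype and 34 knockout cells with too few UMIs, the shares were 0.190% (11 of 5800) and 1.42% (84 of 5932). No wildtype cell had 7 or more, while 13 knockout cells had 7, another 6 had 8 and 7 had 9. Such cells held 2.25% of the members' thinned UMIs in the wildtype and 18.7% in the knockout library.

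**Figure D4:**
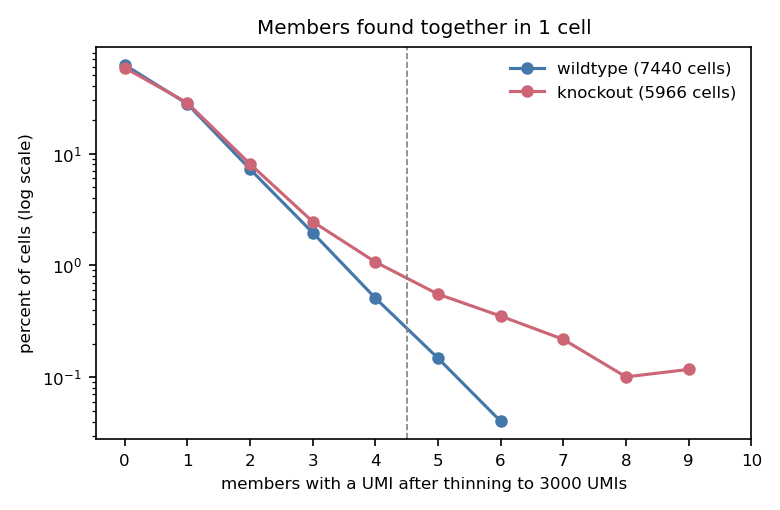
Percent of cells (log scale) by the number of the 10 genes with a UMI after thinning to 3000 UMIs, for the 7440 wildtype and 5966 knockout cells. The lines lie close up to 3 genes and part from 4 on (0.511% and 1.07% at 4), and only knockout cells are found at 7 to 9.

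In cardiomyocytes alone the thinned shares were 0.637% (4 cells, 0.174 to 1.62) and 1.05% (6 cells, 0.388 to 2.28), with overlapping intervals. With a limit of 10% mitochondrial UMIs they were 0% and 1.66%. Without thinning, 30.9% and 33.6% of cardiomyocytes had 5 or more, at median depths of 14103 and 18026 UMIs. Of the 80 knockout cells 33 were epicardial (1.55% of that class, 1.07 to 2.17) against 0 of 929 wildtype epicardial cells, which by a limit of 3 cells allows a share of up to 0.323%. With hemoglobin removed before thinning, epicardial cells gave 2 of 929, 0.215% (0.0261 to 0.775), and 40 of 2130, 1.88% (1.34 to 2.55). Another 23 passed no gate, 6.04% (3.86 to 8.92) of the 381 ungated knockout cells, and held 43.6% of that group's member UMIs. Endothelial cells gave 8 (1.05%), against 2 in the wildtype library (0.148%). Mesenchyme gave 4 (0.980%), against 5 in the wildtype library (0.421%), and in both of these classes the intervals overlap. With hemoglobin removed before thinning, 4 of 765 knockout and 3 of 1350 wildtype endothelial cells were found, and 2 of 408 and 2 of 1183 in mesenchyme. Megakaryocytes gave 3, and erythroid cells gave 0 in both libraries. The 0 of 57 hepatic cells allows, by the same limit, a share of up to 5.26%. The rare cells were therefore spread over several classes. The epicardium held the most, 41.25% of the 80, but was also 35.7% of all knockout cells. Its share of 1.55% stood beside 1.34% over all knockout cells. Among knockout groups of at least 50 cells the largest share was in cells that no marker gate named.

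**Figure D5:**
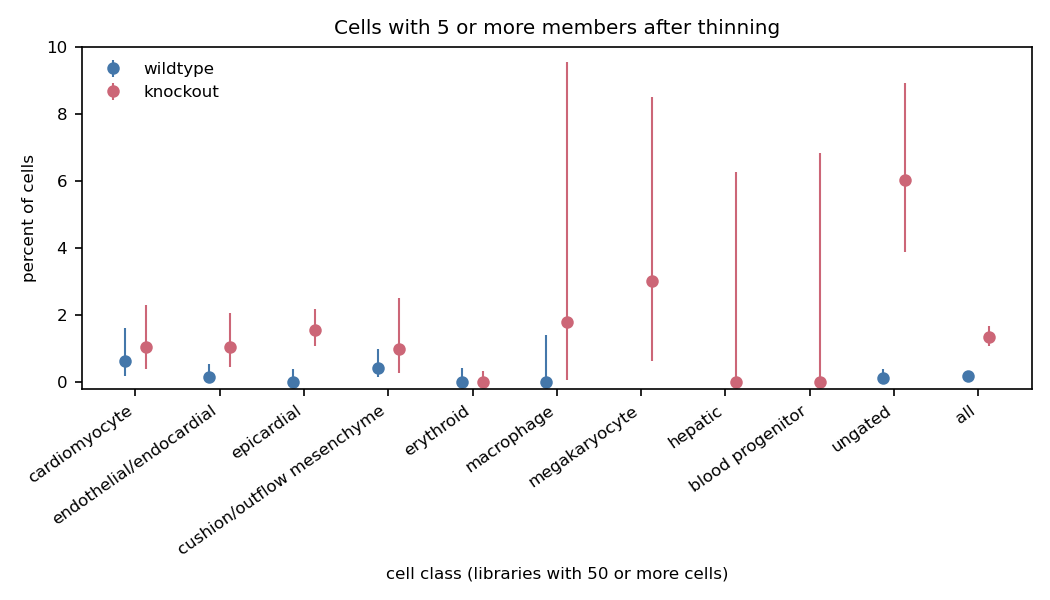
Percent of cells with 5 or more of the 10 genes after thinning, by class and library, with 95% exact binomial intervals, for libraries with at least 50 cells of the class. Ungated knockout cells stand highest at 6.04%. Of the gated classes shown for both libraries, the intervals are apart in epicardial cells. They overlap in cardiomyocytes, endothelial cells, mesenchyme, erythroid cells and macrophages.

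Among the 80 knockout cells, Bnip3 was found in 67, Vegfa in 62, Egln1 in 59, P4ha2 in 58, Ndrg1 and Ankrd37 in 52 each, Pdk1 in 39, Ddit4 in 38, Egln3 in 37 and Adm in 29. In other knockout cells these genes were found in 0.985% (Adm) to 17.5% (Egln1). Ndrg1 was found in 1 of the 14 wildtype cells, and all 14 had Egln1. These counts follow from how the cells were chosen and are a description. The median mitochondrial share was 2.99% in the 80 cells and 4.81% in other knockout cells, and the median depth 13347.5 against 17071 UMIs.

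What these cells shared beyond the 10 genes was measured against cells of the same class, library and UMI total within 1.25-fold, with 10 CPM added to both levels. Ungated and mixed cells were matched among themselves, which does not hold cell type equal. They were 23 and 1 of the 80 knockout cells, and 2 and 1 of the 14 wildtype cells. A gene was counted if, at its level over all cells of the library, as many cells would hold at least 5 of its UMIs. In the knockout library, where 79 of the 80 cells had such partners, 33 of 33 other HIF-induced genes that passed were at least 1.5-fold higher, with a median log2 ratio of 1.76. Over all 6390 genes that passed 13.1% were higher and 26.3% lower, with a median of -0.16. Without a filter, 42 of the 49 genes of the list were higher and 0 lower. Ero1l, an oxidase of the endoplasmic reticulum, had the highest ratio of all genes, without a filter, 624 against 37.9 CPM (3.73). Slc2a1 was at 781 against 97.5 CPM, Hk2 at 549 against 61.8, Pfkp, another glycolytic enzyme, at 257 against 27.1, and the transcription factor gene Bhlhe40 at 152 against 9.12. Of the 10 genes with the highest ratios 5 were on that list, and the others were Dpp6, Ndufa4l2, Hilpda, Gm15283 and Slc16a6.

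In the 14 wildtype cells 10 genes of that list passed, of which 8 were higher and 0 lower, with a median of 1.00, against 10.9% and 15.4% of 1110 genes and a median of 0.01. Without a filter, 28 of the 49 were higher and 3 lower. These cells gave few UMIs: Slc2a1 had 2 (47.6 against 58.9 CPM), Lox had 0, and the gene with the highest ratio, Nts, had 36 (857 against 32.5 CPM). Pgk1 was at 1000 against 393 CPM in wildtype and 2051 against 447 in knockout cells, and Ldha at 1452 against 580 and 1304 against 601. Of other lists in the knockout cells, 3 of 5 genes of the integrated stress response that passed were higher and 1 lower. Their median was 1.19, against -0.16 over all genes, and without a filter 7 of the 13 genes were higher and 1 lower. Of 7 core p53 targets 3 were higher and 1 lower (median 0.41), and of 5 immediate early genes 1 was higher and 2 lower (median 0.27). Of 10 genes of the HIF machinery 1 was higher and 3 lower.

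Across the 15 sums of a class and library with at least 50 cells, log2(CPM + 10) was averaged over the 10 genes. Most like this mean, among 12282 genes with at least 500 UMIs, were Pgam1 (Pearson's r 0.93), Chchd6 (0.93), Alkbh5 (0.92), Gm15283 (0.92) and Mtfr1l (0.92). Hif1a had 0.84, Pgk1 0.92, Arnt 0.41 and Epas1 -0.07. These sums share 2 libraries and their depth, so the values only describe likeness.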

How the data were processed

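The deposited count matrices give UMIs for each gene in each barcode. Cell Ranger 7.1.0 and build mm10 were used upstream by the authors, per the submitters' processing notes, and their handling of introns is unnamed in the sources used here. They hold every barcode, so cells were chosen here by 3000 UMIs, 500 genes and at most 20% mitochondrial UMIs. The gene minimum removed 3642 wildtype barcodes, whose UMIs were 88.7% hemoglobin, and 15 knockout barcodes. Totals per library were 122834180 and 130039314 UMIs.

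Classes were set by summed markers per 10000 UMIs (cardiomyocytes 100, erythroid cells and blood progenitors 5, others 10) with at least 50% of the markers found. Epicardial took precedence over mesenchyme and macrophage over blood progenitor, and cells passing 2 other gates (288 and 299) were left out as mixed. No doublets were removed in the main values; removing the highest Scrublet-method scores, 443 and 285 cells, was an alternative. Counts were summed per class and library and scaled to CPM; levels carry Poisson, ratios conditional binomial and shares Clopper-Pearson intervals at 95%. A gene needed 20 UMIs. The ratios were tested on simulated counts. Thinning drew 3000 UMIs per cell without replacement, and no cell was left out by it. Gene positions are from GENCODE vM21 (mm10). The tools were Python 3.11.15, numpy 2.4.6, scipy 1.17.1 and igraph 0.11.9.

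The 10 genes, lists and markers were chosen with earlier results of these data known. Named beside the 10 genes were the receptors, Hif1a, Epas1, Arnt and Vhl, up to 4 genes of a list with the largest ratio among those with at least 50 UMIs, the 5 most alike genes and the 10 genes with the highest ratio in cells with 5 or more members. Nppa, Col1a1 and Tcf21, and Pgk1, Ldha and Lox in the cells with 5 or more members, fall outside this rule and were chosen after their values were seen. The Myl2 split, the 10 thinnings, the removal of hemoglobin before thinning and the filters on genes beside cells with 5 or more members were chosen after seeing the data.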

Additional observations from a re-analysis of the deposited data

Results flagged for a closer look

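Several genes lay past 1.5-fold in opposite directions in different classes, with intervals off 0 on both sides; the difference between classes was not tested. The log2 ratio of Adm was 1.02 in cardiomyocytes and 1.14 in epicardial cells but -1.32 in mesenchyme. Egln3 was at 3.07 in macrophages and 2.68 in erythroid cells but -0.95 in mesenchyme. The erythroid value rests on 3 wildtype and 41 knockout UMIs and was 0.96 relative to the median gene of those cells. For Bnip3 the ratio was 0.77 in macrophages and -1.78 in erythroid cells. Ddit4 was at 1.85 in epicardial cells and 3.08 in macrophages but -1.09 in erythroid cells, with 18 UMIs in each library there. Ndrg1 was at 5.91 in macrophages, resting on 1 wildtype and 30 knockout UMIs, and -1.34 in cardiomyocytes.

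Within cardiomyocytes the Myl2-rich and Myl2-poor cells had ratios of opposite sign, with intervals off 0, and this difference was not tested either. They were -0.42 and 0.90 for Vegfa, -0.50 and 0.38 for Egln1, -0.75 and 0.69 for Bnip3, and -0.45 and 2.496 for Ddit4.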

How the results depend on the processing

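With 1 library per genotype no replicate could be left out, and no paired analysis was possible because each group holds 1 library. The median ratio of the 10 genes in cardiomyocytes stayed between -0.33 and -0.05 under 10 other settings, each within its median bounds. Thinning to 3000 UMIs gave -0.05 and took P4ha2 from -0.29 to 0.0099. It also took Ddit4 from 0.10 to 0.98 and Egln1 from -0.36 to -0.11, and the mean over cells took Egln3 from -0.01 to 0.62. Ddit4 and Egln3 thereby passed 1.5-fold. Bnip3 and Pdk1 were past 1.5-fold lower under some settings, at -0.71 and -0.67 with clusters in place of the gate, and short of it under others. Of 100 values of single genes under those settings, 91 stayed within their intervals, 8 moved and 1 reversed. A change of sign counted as reversed only where the main interval lay off 0. The settings relative to the median gene and without globin and mitochondrial UMIs shift all 10 genes alike, so they say little about single genes. In Myl2-poor cells the median was 0.79, with Vegfa at 0.90, Egln1 at 0.38, Bnip3 at 0.69, Ndrg1 at 0.48 and P4ha2 at 0.19.

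In other classes, endothelial and endocardial cells gave 0.39 when thinned. The epicardial median was 0.26 with a stricter gate and 0.16 with clusters, which took that of mesenchyme to -0.29. In erythroid cells the median was -1.55 with clusters, -0.68 without globin and mitochondrial UMIs, and -0.87 relative to the median gene. Macrophages gave 0.73 with the highest doublet scores removed, and clusters could not be run for them because fewer than 50 cells of a library were left. The cause of the moves was not tested.

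The share of cells with 5 or more members depends on depth and on the number asked for. For wildtype and knockout cardiomyocytes it was 30.9% and 33.6% unthinned, 5% and 4.85% at 6000 UMIs, 3.98% and 4.22% for 4 or more members, and 14.3% and 11.9% for 3 or more. The wildtype share was 0% with a limit of 10% mitochondrial UMIs and 0.159% in the lowest of 10 thinnings. For all cells it was 4.75% and 11.7% unthinned, 0.999% and 2.56% at 6000 UMIs, 0.699% and 2.41% for 4 or more, and 2.66% and 4.88% for 3 or more.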
